A study of Arabidopsis thaliana with 6 samples.

Results

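Transcripts of the polysaccharide synthases of the pollen tube wall were measured by mRNA sequencing of Arabidopsis thaliana styles together with the pollen tubes grown in them. The set was 10 genes chosen by identifier out of 33323 in the count tables: the cellulose synthase-like D genes CSLD1 (AT2G33100), CSLD2 (AT5G16910), CSLD3 (AT3G03050) and CSLD4 (AT4G38190), the callose synthase CALS5 (AT2G13680), the cellulose synthases CESA1 (AT4G32410), CESA3 (AT5G05170), CESA6 (AT5G64740) and CESA9 (AT2G21770), and the mannan synthase CSLA7 (AT2G35650). They lie on chromosomes 2, 3, 4 and 5. Complexes of the genotype labelled paps1-1 (Col-0) gave 3 libraries and wild-type (WT) Col-0 complexes gave 3. PAPS1 encodes a nuclear poly(A) polymerase, the enzyme that adds poly(A) tails to new transcripts, and the labels name paps1-1 as a mutant. They do not say whether the tube, the style or both carried it, and they give no plant age, hours of tube growth or number of styles per sample.

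A pollen tube grows at its tip, and behind the tip it lays down an inner wall rich in callose and a thinner layer of cellulose. Callose is made by large callose synthases in the plasma membrane. Cellulose is made by complexes of CESA proteins, while CSLD proteins are cellulose synthase-like enzymes that tip-growing cells such as root hairs and pollen tubes depend on. CSLA proteins make mannans.

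Gene reads numbered 15092276, 4541233 and 18717968 in paps1-1 replicates 1 to 3, and 21031017, 13707799 and 19288861 in WT replicates 1 to 3. In paps1-1 replicate 2, the shallowest library, 74.6% of all reads mapped to several places, against 7.28% to 28.0% in the other 5. PAPS1 itself stood at 88.4, 99.4 and 59.9 CPM (counts relative to library size, which was scaled by TMM) in paps1-1 and at 143, 101 and 104 CPM in WT. Its log2 fold change of -0.49 (SE 0.28) did not pass edgeR's quasi-likelihood test (adjusted p = 0.609), and the transcript level of a mutant allele need not differ, so it is no check of the labels. The labelled tissue was compared with marker lists. All 12 pollen tube markers passed the filter on low counts, with VGD1 and AGP11 highest per coding kilobase, and their summed level was 34208, 37632 and 50322 CPM in paps1-1 against 59778, 32745 and 81667 CPM in WT. VGD1 alone made up most of each sum, at 20385, 22371 and 31959 CPM in paps1-1 and 41237, 20582 and 52270 CPM in WT. All 12 markers had a negative log2 fold change, with a median of -0.48, and 0 passed the edgeR test at an adjusted p under 0.05. Of 8 style markers, 4 passed the filter, with SPT and NGA3 highest per coding kilobase, HEC1, HEC2 and CRC had no read in any library, and STY1 had at most 3. The summed style marker level was 33.1, 28.3 and 32.4 CPM in paps1-1 and 29.2, 23.2 and 19.8 CPM in WT. WT replicate 3 thus had the highest summed tube marker level and the lowest summed style marker level. In such bulk samples, fewer tubes and less RNA per tube cannot be told apart.

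All 10 synthases were detected in every library and passed the filter. Together they took 0.272%, 0.283% and 0.314% of gene reads in paps1-1 replicates 1 to 3, and 0.319%, 0.272% and 0.341% in WT replicates 1 to 3. The 95% Clopper-Pearson interval was widest in paps1-1 replicate 2, from 0.2783% to 0.2881%. These intervals cover counting error only, and the ranges of both genotypes overlapped.

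Levels between genes were compared as CPM per kilobase of coding sequence, averaged over the 6 libraries. CSLD4 was highest at 286, followed by CALS5 at 227 and CSLD1 at 198. Next came CESA6 at 16.1, CESA3 at 15.3 and CESA1 at 14.5. CSLA7 stood at 8.33, CSLD3 at 7.55, CSLD2 at 4.56 and CESA9 at 0.515. The ranges of CSLD4, CALS5 and CSLD1 over the 6 libraries overlapped. Within libraries CSLD4 was above CSLD1 in all 6 and above CALS5 in 5, while CALS5 was above CSLD1 in 4. CSLD1, the lowest of these, was above CESA6 in every library without overlap. CESA6, CESA3 and CESA1 overlapped with one another, as did CSLA7 and CSLD3. CSLD3 lay above CSLD2, and CSLD2 above CESA9, in all 6 libraries without overlap.

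CSLD1, CSLD4 and CALS5 made up most of the summed level of the 10 genes per coding kilobase. Their share was 89.9%, 88.6% and 90.2% in paps1-1 replicates 1 to 3, and 93.0%, 88.7% and 94.8% in WT replicates 1 to 3. The order was the same per kilobase of exon, except that CESA3 then stood just above CESA6, at 12.8 and 12.5.

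**Figure D1:**
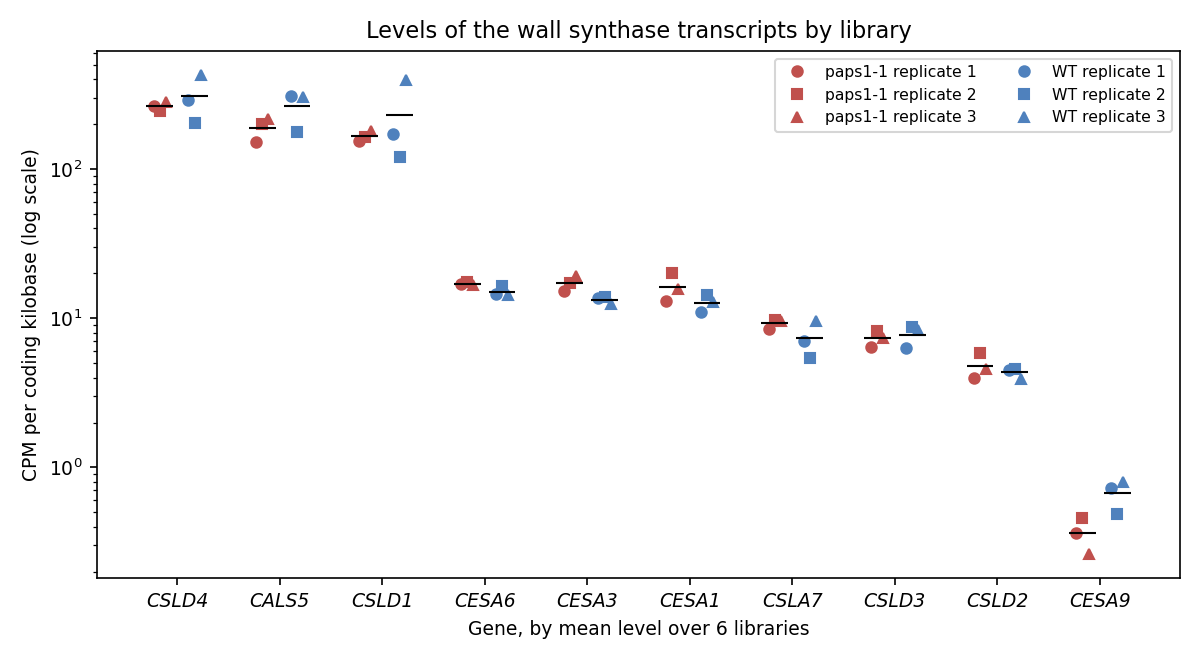
Levels of the 10 synthase transcripts in each library, as CPM per coding kilobase on a log axis, with genes ordered by their mean over 6 libraries. Red symbols are paps1-1 and blue symbols WT, the shape gives the replicate and black lines are group means. The 3 genes on the left lie above 100 in all libraries and CESA9 lies below 1.

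CSLD1 and CSLD4 are the CSLD genes known from pollen, and loss of either disturbs the tube wall and its growth. CSLD1 stood at 479, 512 and 561 CPM in paps1-1 replicates 1 to 3, against 536, 376 and 1232 CPM in WT replicates 1 to 3. The 3 paps1-1 values lay close together and inside the WT range, which WT replicate 3 stretched upward. The log2 fold change of CSLD1 was -0.47 (SE 0.39, 95% interval -1.30 to 0.37), and it did not pass the quasi-likelihood test of edgeR (Benjamini-Hochberg adjusted p = 0.805). Without WT replicate 3 it was 0.15. Like the summed tube markers, CSLD1 was highest in WT replicate 3 and lowest in WT replicate 2, and their part in its value was not tested.

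CSLD4 stood at 883, 816 and 943 CPM in the paps1-1 libraries and at 977, 677 and 1434 CPM in the WT libraries. Again all 3 paps1-1 values fell inside the WT range. Its log2 fold change was -0.22 (SE 0.34, 95% interval -0.95 to 0.50, adjusted p = 0.922 by edgeR), and 0.06 without WT replicate 3. The spread within genotypes differed for this pair: the coefficient of variation was 7.89% in paps1-1 and 63.7% in WT for CSLD1, and 7.20% in paps1-1 and 37.0% in WT for CSLD4. It was not particular to them, with 24.8% in paps1-1 and 42.3% in WT for VGD1, and 15.3% and 67.4% for AGP11. CSLD2 went the other way, at 19.6% in paps1-1 and 8.35% in WT.

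The balance of both genes was compared within libraries, where library size cancels. Per coding kilobase CSLD4 was 1.72, 1.49 and 1.57 times CSLD1 in paps1-1, and 1.70, 1.68 and 1.09 times CSLD1 in WT. WT replicate 3 stood apart, with nearly equal levels. On the log2 scale of counts, CSLD1 over CSLD4 averaged -0.77 ± 0.11 in paps1-1 and -0.64 ± 0.37 in WT (SD, n = 3 each). The difference of -0.12 was within the spread (exact permutation test, two-sided, p = 0.80, adjusted p = 0.80 over 4 ratios). The smallest p that 3 against 3 libraries allow is 0.10, and without WT replicate 3 the difference was 0.09.

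CSLD2 and CSLD3 are known from root hairs, where the CSLD3 mutant kojak fails to keep the growing hair intact. CSLD2 had 13.6, 20.0 and 15.8 CPM in paps1-1 against 15.5, 15.7 and 13.5 CPM in WT. CSLD3 had 21.9, 28.3 and 25.4 CPM in paps1-1 against 21.7, 29.8 and 28.5 CPM in WT. For both, the genotypes overlapped widely. The log2 fold changes were 0.13 for CSLD2 (95% interval -0.39 to 0.65) and -0.09 for CSLD3 (95% interval -0.59 to 0.42). In this fit a change of 2-fold in either direction lay outside both intervals. With libraries scaled to the tube markers the errors were wider, at 0.46 (SE 0.55) for CSLD2 and 0.22 (SE 0.52) for CSLD3. The median of all tested genes was then 0.37.

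Counts of CSLD2 and CSLD3 together were 0.0261, 0.0364 and 0.0274 times those of CSLD1 and CSLD4 in paps1-1, and 0.0246, 0.0433 and 0.0157 times in WT. The log2 ratio averaged -5.08 ± 0.26 in paps1-1 and -5.29 ± 0.73 in WT (SD, n = 3 each; exact permutation test, two-sided, p = 0.70, adjusted p = 0.80). Its difference of 0.21 was -0.14 without WT replicate 3. WT replicate 3, with the highest summed tube marker level, had the lowest of these ratios. The part of tube RNA in them was not tested.

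CALS5 (also GSL2) makes callose of developing pollen and of the tube. Its level was 878, 1166 and 1244 CPM in paps1-1, against 1776, 1024 and 1759 CPM in WT. WT replicates 1 and 3 lay above all paps1-1 libraries and WT replicate 2 lay among them. The log2 fold change was -0.47 (SE 0.34, 95% interval -1.20 to 0.26, adjusted p = 0.753 by edgeR). It was negative with each library left out, from -0.69 to -0.34. When libraries were scaled to the tube markers it was -0.02, while the median of all tested genes was 0.37.

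CALS5 was also set against the tube CSLDs. The ratio of CALS5 counts to CSLD1 and CSLD4 counts was 0.644, 0.878 and 0.827 in paps1-1 and 1.17, 0.973 and 0.660 in WT. All 3 paps1-1 libraries and WT replicate 3 lay below the other pair of WT libraries. On the log2 scale it averaged -0.37 ± 0.24 in paps1-1 and -0.14 ± 0.42 in WT (SD, n = 3 each), a difference of -0.23 that was within the spread (exact permutation test, two-sided, p = 0.40, adjusted p = 0.80). The difference was -0.46 without WT replicate 3, where the genotypes no longer overlapped, and -0.05 without WT replicate 1.

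CESA1, CESA3 and CESA6 are the subunits of the cellulose synthase complex of primary walls. CESA1 had 42.4, 64.9 and 50.9 CPM in paps1-1 against 35.9, 46.3 and 41.5 CPM in WT, with overlap. CESA3 had 48.8, 54.9 and 61.6 CPM in paps1-1 against 43.9, 44.3 and 39.9 CPM in WT. CESA6 had 54.9, 56.6 and 54.5 CPM in paps1-1 against 47.6, 53.4 and 46.5 CPM in WT. For CESA3 and CESA6 every paps1-1 library lay above every WT library, by a small margin for CESA6.

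None of the 3 passed the test. The log2 fold change was 0.35 for CESA1 (SE 0.25, adjusted p = 0.738), 0.37 for CESA3 (SE 0.23, adjusted p = 0.679) and 0.17 for CESA6 (SE 0.23, adjusted p = 0.905; edgeR, Benjamini-Hochberg). The 95% intervals reached up to 0.87, 0.86 and 0.65. These values were positive with each library left out and under every other alternative tried, and CESA1 was lowest, at 0.15, without paps1-1 replicate 2. Of the 4 tested style markers 3 were positive as well, with a median log2 fold change of 0.46 and a range from -0.55 to 1.26. For SPT and ETT every paps1-1 library lay above every WT library, while for NTT (-0.55) every paps1-1 library lay below. Over all tested genes, 14.7% had genotypes that did not overlap. ETT was scarce, with 14, 4 and 12 reads in paps1-1 and 5, 3 and 7 reads in WT. The part of style RNA in the CESA values was not tested.

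CESA9, an isoform of the CESA6 class known from the seed coat, was the scarcest synthase. It had 20, 7 and 17 reads in paps1-1 and 46, 26 and 37 reads in WT, which is 1.19, 1.49 and 0.859 CPM in paps1-1 against 2.38, 1.59 and 2.60 CPM in WT. The genotypes did not overlap, though WT replicate 2 and paps1-1 replicate 2 lay close together. Its log2 fold change was -0.97 (SE 0.40, 95% interval -1.82 to -0.11). Of the 10 synthases only CESA9 had an unadjusted p under 0.05 in the edgeR fit, a mark that 10.3% of all tested genes reached in either direction and 6.05% as lower in paps1-1. It did not pass after Benjamini-Hochberg adjustment over all genes tested by edgeR (adjusted p = 0.376). With counts of 1 strand in place of both, CESA9 was at -0.44 on the log2 scale (SE 0.49) and none of the 10 had an unadjusted p under 0.05. That strand held only 41.8% of the CESA9 counts of both strands, so fewer reads bear on this value. At 7 reads in paps1-1 replicate 2 the depth was thin, where 3 reads correspond to 0.638 CPM.

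Transcript levels of CESA1, CESA3 and CESA6 were near even. The other CESA6-class genes were lower, with CESA2 at 9.86, CESA5 at 6.85 and CESA9 at 0.515 CPM per coding kilobase over the 6 libraries. The make-up of the protein complex was not measured. Among CESA1, CESA3 and CESA6 the highest was 1.29, 1.16 and 1.23 times the lowest per coding kilobase in paps1-1 replicates 1 to 3, and 1.32, 1.18 and 1.15 times in WT replicates 1 to 3. The log2 ratio of CESA6 plus CESA9 to CESA1 plus CESA3 was -0.70, -1.04 and -1.02 in paps1-1 and -0.68, -0.72 and -0.73 in WT. WT libraries lay within a narrow band, and paps1-1 replicate 1 fell in it while the other paps1-1 libraries lay below. The means were -0.92 ± 0.19 in paps1-1 and -0.71 ± 0.03 in WT (SD, n = 3 each; exact permutation test, two-sided, p = 0.30, adjusted p = 0.80).

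**Figure D2:**
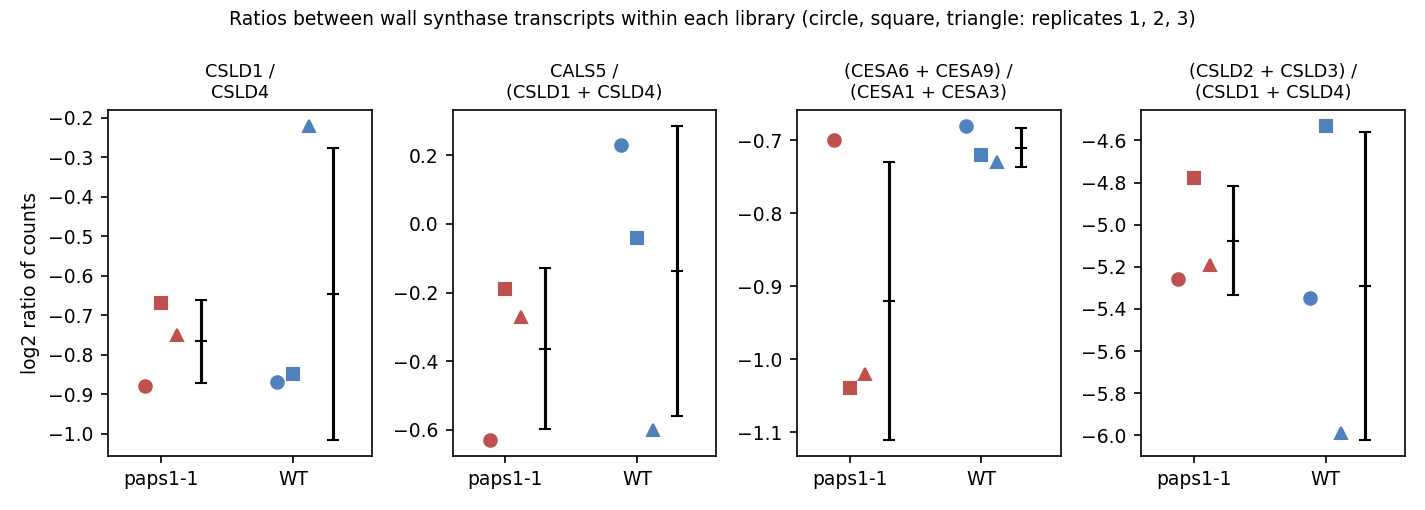
Log2 ratios of counts between synthase genes within each library, with a separate axis range for each panel. Red is paps1-1 and blue is WT, shapes give the replicate, and black bars are the mean with 1 SD (n = 3). The genotypes overlap in all 4 ratios, and WT replicate 3 has the highest ratio of CSLD1 to CSLD4, at -0.22.

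CSLA7 makes glucomannan, and its loss is known to hamper pollen tube growth and to arrest the embryo. It had 14.2, 16.2 and 16.0 CPM in paps1-1 against 11.8, 9.10 and 16.1 CPM in WT. The paps1-1 libraries lay together at the upper end of the WT range. The log2 fold change was 0.32 (SE 0.26, 95% interval -0.23 to 0.88, adjusted p = 0.790 by edgeR). It was 0.14 without WT replicate 2 and 0.53 without WT replicate 3.

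Over the set, 0 of 10 synthases were called at an adjusted p under 0.05, where 2.34% of 18317 tested genes were called (edgeR quasi-likelihood test, Benjamini-Hochberg). DESeq2 and limma-voom also called 0 of 10. Of the log2 fold changes 5 were positive and 5 negative, with a median of 0.02, and the median over all tested genes was 0.03. The genotypes did not overlap for 3 of the 10, CESA3 and CESA6 higher and CESA9 lower in paps1-1, against 14.7% of all tested genes, made up of 6.92% that were higher and 7.82% that were lower in paps1-1. A miss of the threshold does not show that the levels were alike: for CSLD1, CALS5 and CESA9 the 95% intervals still held a halving.

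Scaling libraries to the summed reads of the 12 tube markers, most of them from VGD1, shifted the median of all tested genes to 0.37. Changes under this scaling are read against that value. CSLD1 (0.13), CSLD3 (0.22), CSLD4 (0.28), CALS5 (-0.02) and CESA9 (-0.45) then lay below the shifted median. CSLD2 (0.46), CESA1 (0.65), CESA3 (0.67), CESA6 (0.49) and CSLA7 (0.79) lay above it, and none of the 10 passed the edgeR test with this scaling.

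**Figure D3:**
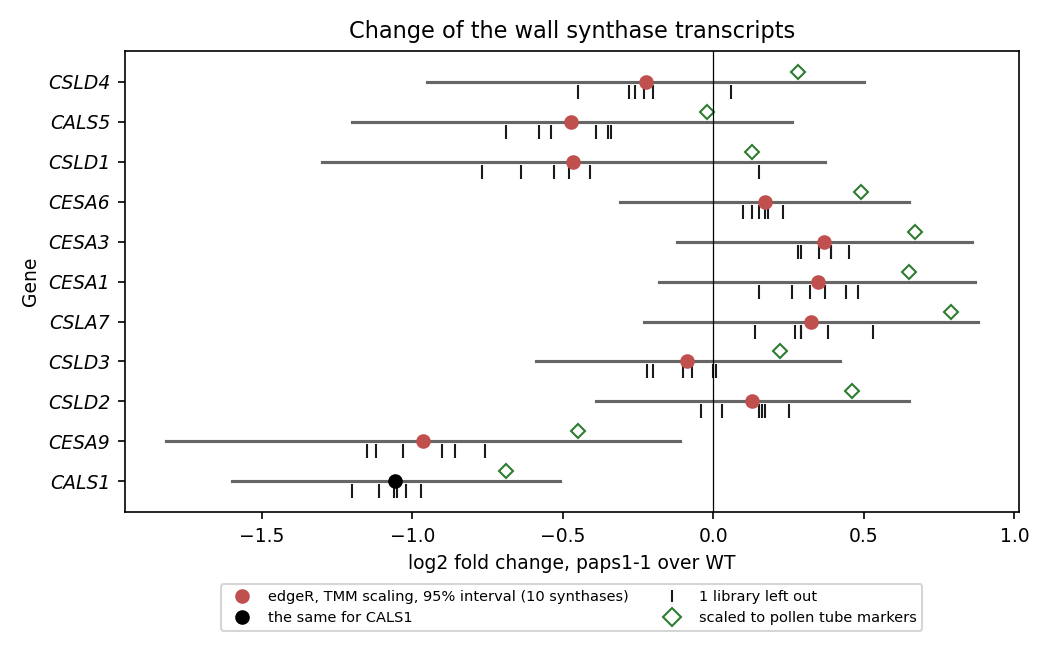
Log2 fold change of each synthase and of CALS1, paps1-1 over WT. Circles with lines are edgeR estimates with 95% intervals, ticks below them are the values with 1 library left out, and green diamonds are values with libraries scaled to 12 pollen tube markers. The lines of CESA9 and CALS1 do not cross 0, and only CALS1 passed adjustment over all genes.

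The other genes of wall polysaccharide synthesis were read from the same fit. Of 50 listed genes 38 were tested, and the other 12 were sparse, with at most 1.47 CPM in any library. Of these 38 none was called higher and 1 was called lower, a share near the 2.34% called over all genes. An unadjusted p under 0.05 in this fit was reached by 6 of them, against 10.3% of all tested genes. The median log2 fold change was 0.11, with 23 values positive and 15 negative.

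The gene called lower was CALS1 (AT1G05570, also GSL6), a callose synthase known from the cell plate of dividing cells. It had 6.65, 4.47 and 5.61 CPM in paps1-1 against 12.4, 10.9 and 12.1 CPM in WT. All paps1-1 libraries lay well below all WT libraries. Its log2 fold change was -1.06 (SE 0.26, adjusted p = 0.0412 by edgeR), and DESeq2 and limma-voom called it too. With each library left out the value ranged from -1.20 to -0.97, and the call was lost in each of these fits, with adjusted p from 0.0651 without WT replicate 3 to 0.163 without paps1-1 replicate 2. Scaled to the tube markers it was -0.69 (SE 0.58, adjusted p = 0.913 by edgeR). The median of all tested genes was 0.37 with that scaling, against 0.03 in the main fit. Of 16 alternatives 6 called it. CALS1 lies on chromosome 1, as does PAPS1. On that chromosome 3.18% of tested genes were called, against 1.29%, 4.37%, 1.19% and 1.08% on chromosomes 2, 3, 4 and 5. Of the 100 tested genes around CALS1, 7 were called. The part of its place in the difference was not tested. Its close paralog CALS2 (annotated as GSL3) had a log2 fold change of 0.16 (SE 0.24), and reads that map to both copies are missing from either count.

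In every library CALS5 was the main callose synthase transcript. Its share of the summed level per coding kilobase of the 12 family members was 54.6%, 57.3% and 62.2% in paps1-1, and 66.1%, 58.1% and 65.6% in WT. Next in level were CALS12 (annotated as GSL5 and PMR4), which makes the callose laid down after wounding or fungal attack, and CALS10 (GSL8), which acts in cell division. CALS9, which acts in microspore division, was level with CALS10, at a mean over the 6 libraries of 34.1 CPM per coding kilobase against 34.6 for CALS10. CALS12 stood at 199, 247 and 235 CPM in paps1-1 against 364, 220.1 and 359 CPM in WT, with a log2 fold change of -0.47 (SE 0.29). As for CALS5, WT replicates 1 and 3 were above the other libraries. CALS10 stood at 196 ± 18.9 CPM in paps1-1 and 199.5 ± 20.2 CPM in WT (SD, n = 3 each). Of the 10 tested callose synthases other than CALS5, 6 were positive and 4 negative, with a median log2 fold change of 0.11. CALS8 (GSL4) had a log2 fold change of 0.53 (SE 0.28, adjusted p = 0.560 by edgeR).

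Within the CSLD family CSLD1 and CSLD4 together held 97.5%, 96.6% and 97.4% of the level per coding kilobase in paps1-1, and 97.7%, 96.0% and 98.5% in WT. CSLD5, the other CSLD gene tested, stood at no more than 1.14 CPM in any library, and CSLD6 was too sparse to test. CESA1, CESA3 and CESA6 held 67.6%, 72.3% and 73.1% of the CESA level in paps1-1, and 73.1%, 71.3% and 66.4% in WT. CESA2 and CESA5, of the CESA6 class, followed, CESA2 with a log2 fold change of 0.22 (SE 0.25) and CESA5 with one of 0.31 (SE 0.23). All 4 tested CESA genes outside the set were positive on the log2 scale, with a median of 0.27, and 0 were called. One of them was CESA8, a secondary wall synthase, at 0.771, 1.92 and 0.607 CPM in paps1-1 against 0.103, 0.183 and 0.351 CPM in WT (log2 fold change 2.16, SE 0.66, adjusted p = 0.132 by edgeR). These levels rest on few reads, 13, 9 and 12 in paps1-1 and 2, 3 and 5 in WT.

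CSLA7 was a minor part of its own family, at 3.30% to 4.27% of the level per coding kilobase in paps1-1 and 2.01% to 3.69% in WT. The main mannan synthase transcript was CSLA2, known from seed mucilage, at 329 ± 66.2 CPM in paps1-1 and 330.1 ± 183 CPM in WT (SD, n = 3 each). CSLA9, the main glucomannan synthase of stems, had 48.1, 36.0 and 44.0 CPM in paps1-1 against 43.7, 39.9 and 215 CPM in WT. Only WT replicate 3 stood apart, and the log2 fold change of CSLA9 was -1.21 (SE 0.49) with this library and 0.01 without it. The 5 tested CSLA genes outside the set had a median log2 fold change of -0.01, and 0 were called. CSLA11 was scarce, at 0.303 to 1.54 CPM in paps1-1 and 0.491 to 0.826 CPM in WT.

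**Figure D4:**
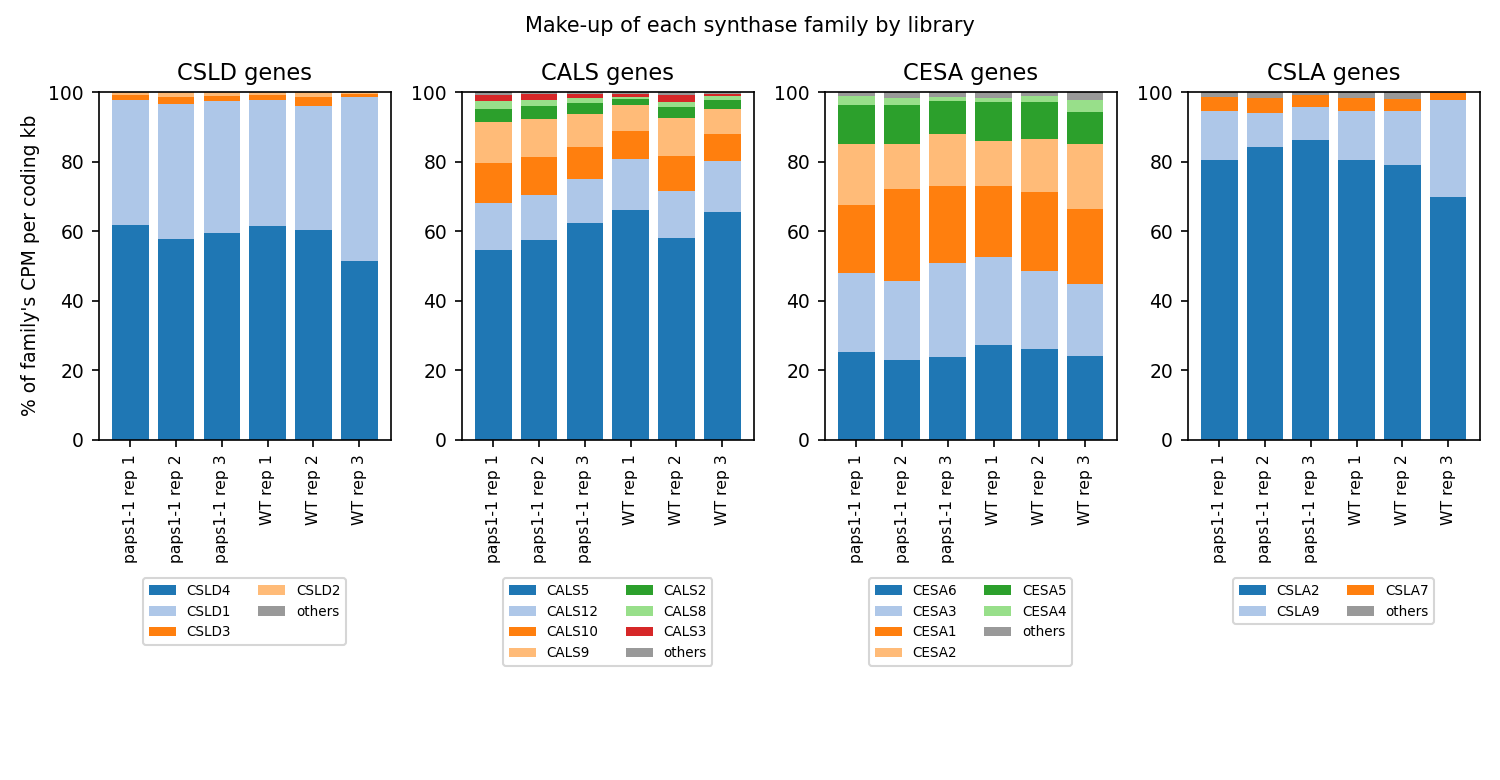
Make-up of each synthase family in each library, as the percentage of the family's summed CPM per coding kilobase, with genes under 1% on average pooled as others. CSLD4 and CSLD1 fill nearly all of the CSLD level, CALS5 takes 54.6% to 66.1% of the CALS level, and in WT replicate 3 CSLD1 and CSLA9 take a larger part than in the other libraries.

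Among 11 tested accessory genes of cellulose synthesis none was called, and the median log2 fold change was 0.11. COBL10, a membrane-anchored protein that pollen tubes need to follow guidance cues, was by far the highest per coding kilobase, at 2917, 2848 and 3201 CPM in paps1-1 against 4004, 2490 and 5264 CPM in WT. Like CSLD1 and CSLD4, it was highest in WT replicate 3 and lowest in WT replicate 2 (log2 fold change -0.39, SE 0.38). Its relative COBL11 had 3.44, 4.68 and 4.50 CPM in paps1-1 against 6.92, 4.94 and 18.0 CPM in WT, without overlap (log2 fold change -1.25, SE 0.41, adjusted p = 0.172 by edgeR). Without WT replicate 3 its value was -0.55. CSI3, a relative of the protein that ties cellulose synthase complexes to microtubules, had 9.55, 8.51 and 18.3 CPM in paps1-1 against 5.32, 4.09 and 10.1 CPM in WT (log2 fold change 0.93, SE 0.36, adjusted p = 0.312). Its value was 0.49 without paps1-1 replicate 3 and 1.36 without WT replicate 3. CTL1, a chitinase-like protein needed for normal cellulose, had a log2 fold change of 0.11 (SE 0.23).

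The supply of nucleotide sugars was covered by 7 tested genes, none called, with a median log2 fold change of 0.11. CYT1, which makes GDP-mannose, was the highest per coding kilobase, at 332 ± 28.8 CPM in paps1-1 and 353 ± 182 CPM in WT (SD, n = 3 each). USP, a UDP-sugar pyrophosphorylase needed for pollen development, had 116, 113 and 99.2 CPM in paps1-1 against 132, 120 and 139 CPM in WT. Its groups did not overlap, but its log2 fold change of -0.25 (SE 0.25) did not pass. Of the sucrose synthases, SUS1 had a log2 fold change of 0.50 (SE 0.24, adjusted p = 0.504 by edgeR) and SUS2 one of -0.88 (SE 0.37, adjusted p = 0.384).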

How the data were processed

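Per the submitters' processing notes, STAR and the genome TAIR10 were used, with a version and annotation not given in the sources used here. Deposited counts are whole reads per gene, 1 table per library, with no normalization by the authors. Both strands had nearly equal totals (ratio 1.016 to 1.066), so counts that ignore strand were used. Reads naming no gene, 14.7% to 86.1% of all, were left out, among them reads that map to several places.

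Genes were kept by filterByExpr (minimum count 10) of edgeR 4.0.16, scaled by TMM and tested with its quasi-likelihood test (two-sided, R 4.3.3). Calls need a Benjamini-Hochberg adjusted p under 0.05 over all 18317 tested genes. SE is the log2 fold change over the square root of F, and 95% intervals use 15.2 degrees of freedom. Coding lengths came from the annotation of TAIR10.1, which differs in name from the build of the counts, so no coordinates or sequences were taken. Of 80 listed symbols 67 are names in that annotation, and the others were matched by identifier. The members and lists were chosen with earlier results of these data known. Named genes are all 10 members, every called gene of the other lists, and in each list the 2 highest per coding kilobase and the 2 of smallest p, and for marker lists the 2 highest. HEC1, HEC2, CRC, STY1, ETT, NTT, CSLD6, CALS2 and CALS9 were named after their values were seen. Only the WT titles speak of biological replicates, and nothing states separate plants for paps1-1, whose spread, and so the p-values, may be partly technical. Every 2 libraries differed beyond sampling noise (chi-square per degree of freedom at least 31.2). Alternatives were RLE, upper-quartile and tube marker scaling, testing without a filter or with at least 5 CPM in 3 libraries, DESeq2 1.42.0, limma-voom 3.58.1, counts of 1 strand, left-out libraries and a replicate block.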

Additional observations from a re-analysis of the deposited data

How the results depend on the processing

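None of the 10 synthases was called under any of the alternatives that tested it, 16 for each gene but CESA9, which the 5 CPM filter left out. In place of 429, the genes called numbered 1042 with no filter on low counts, 216 with the 5 CPM filter and 237 without WT replicate 3 and paps1-1 replicate 2 together. Tube marker scaling called 218 higher and 74 lower, in place of 213 and 216, DESeq2 237 higher and 383 lower, and with each library left out 333 to 456 were called. Other genes of the pathway called numbered 4 with no filter (CALS1, CSLA9 and COBL11 lower, CSI3 higher), in place of 1, and 0 with the 5 CPM filter (CALS1 adjusted p = 0.0529 by edgeR), with tube marker scaling, without both libraries together, with each library left out in turn (0 to 0) and with the replicate block. The causes were not tested. Signs turned for CSLD1 and CSLD4 without WT replicate 3 (0.15 and 0.06), and without it and paps1-1 replicate 2 (0.16 and 0.12). They turned for CSLD3 between 0 and 0.01 without WT replicate 2 or paps1-1 replicate 1. For CSLD2 they turned without paps1-1 replicate 2 (-0.04) and without both libraries (-0.11). Tube marker scaling gave values above 0 for CSLD1, CSLD4 and CSLD3 (0.13, 0.28 and 0.22). These lay below the median of all tested genes under that scaling, 0.37. Leaving out WT replicate 3 also turned CSLA2 (0.51), CSLA9 (0.01), CTL1 (-0.04) and CYT1 (0.39). CSLA2 was 0.10 and 0.02 without paps1-1 replicates 1 and 2, and CALS10 was 0 to 0.01 without WT replicate 1, paps1-1 replicate 1 or paps1-1 replicate 3. Over the fits that leave out 1 library, values ranged from -0.77 to 0.15 for CSLD1, -0.04 to 0.25 for CSLD2, -0.22 to 0.01 for CSLD3, -0.45 to 0.06 for CSLD4, -0.13 to 0.01 for CALS10, -0.26 to 0.51 for CSLA2, -1.59 to 0.01 for CSLA9, -0.04 to 0.24 for CTL1 and -0.30 to 0.39 for CYT1. Signs held but sizes moved for CESA1 (0.15 to 0.48), CESA6 (0.10 to 0.23), CSLA7 (0.14 to 0.53), CALS8 (0.28 to 0.80), COBL10 (-0.64 to -0.15), CSI3 (0.49 to 1.36) and SUS2 (-1.28 to -0.60). The difference in log2 ratio ranged from -0.23 to 0.09 for CSLD1 over CSLD4 and from -0.14 to 0.59 for CSLD2 plus CSLD3 over CSLD1 plus CSLD4, the ends that turned sign being those without WT replicate 3. Without both libraries together these were 0.04 and -0.29.

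Deviations of same-numbered libraries from their group means correlated at -0.32, 0.14 and -0.18 across genes. The highest value of any pair was 0.39, for paps1-1 replicate 3 and WT replicate 1. With 3 libraries per genotype the deviations depend on one another, so these values cannot decide whether libraries were paired. With the replicate block 482 genes and 0 of the 10 synthases were called, and CALS1 had an adjusted p of 0.0629 by edgeR. CALS5, CESA1, CESA3, CESA6, CESA9 and CSLA7 kept their sign in every alternative that gave a value. Depth limits CESA9 most, at 7 reads in paps1-1 replicate 2.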
